A study of Homo sapiens with 10 samples.

Results

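Cells take up and release amino acids, and neurons clear their transmitters, through membrane proteins of a few solute carrier (SLC) families. The genes described here are the members of the SLC1, SLC3, SLC6, SLC7, SLC36, SLC38 and SLC43 families, chosen by their symbols, with 1 further SLC7 gene left out by that rule. They were 58 of the 27492 gene symbols in the deposited tables. By family they were 7 genes of SLC1, 2 of SLC3, 19 of SLC6, 12 of SLC7, 4 of SLC36, 11 of SLC38 and 3 of SLC43. All 58 stood in the tables of primed and endodermal cells, and 57 in the hEPS table, which did not list SLC38A3.

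The RNA came from H9, an established human embryonic stem cell (hESC) line, here with a GFP reporter driven by LTR7. Untreated primed hESCs were kept in mTeSR on Matrigel, and treated primed hESCs stayed 12 days in the same medium with 10 mM crotonate, a short-chain acid from which cells make crotonyl-CoA. Extended pluripotent stem (hEPS) cells were converted from this line in LCDM medium on inactivated mouse feeder cells, taken off the feeders by their adherence, and sequenced untreated or after 12 days in 10 mM crotonate. Endodermal cells were derived from the reporter hESCs in E8 medium with BMP4 and Activin A, with CHIR99021 at the start only, and received no crotonate. The labels list 10 samples, 2 per group, but the tables hold 1 column per group. Each value is therefore the authors' value for a group, in FPKM (fragments per kilobase of transcript and 1000000 mapped fragments), with no SD, no n and no test. LCDM contains added non-essential amino acids, glutamine, serum replacement and B27, and the amino acid content of mTeSR was not compared with it. Medium and cell state cannot be told apart. All groups came from 1 line. Mouse RNA from the feeders was not looked for.

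The carriers divide by how they work. SLC3A2 is a heavy subunit with no transport activity of its own that brings light subunits of the SLC7 family, such as SLC7A5, to the cell surface, where each pair exchanges one amino acid for another. SLC1, SLC6 and SLC38 carriers use the sodium gradient to concentrate glutamate, glutamine, small neutral amino acids, taurine, creatine, GABA or monoamines. Some SLC36 carriers, such as SLC36A1, use protons. Pluripotent cells are known for a high demand for glutamine, leucine, serine and methionine. Leucine that enters through SLC7A5 and SLC3A2 is a signal for the growth kinase complex mTORC1.

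Of 6 pluripotency markers, 6 were at 1 FPKM or more in untreated primed hESCs, 3 in treated primed hESCs, 6 in each hEPS column and 3 in endodermal cells. POU5F1 was at 827 FPKM in untreated and 0.420 FPKM in treated primed hESCs, against 461 and 261 FPKM in the hEPS columns and 0.809 FPKM in endodermal cells. Of 8 endoderm markers, 2, 7, 7, 8 and 3 were at 1 FPKM or more in the same order of columns, and in endodermal cells FOXA2 was listed at 0 and SOX17 at 0.0721 FPKM, while GATA4 was at 99.9 FPKM, CXCR4 at 34.7 FPKM and GATA6 at 3.40 FPKM. Markers of mesoderm and mesenchyme (6 found) summed to 0.538 FPKM in untreated primed hESCs, 2071 in treated primed hESCs, 10.6 and 8.97 in the hEPS columns and 1351 in endodermal cells. In bulk RNA, fewer cells of a type and less RNA per cell cannot be told apart. The part of these marker differences in the carrier values was not tested.

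Levels were compared between genes as FPKM, which is scaled by transcript length. At 1 FPKM or more stood 31 of 58 carrier genes in untreated primed hESCs, 33 in treated primed hESCs, 32 of 57 in untreated hEPS cells, 34 in treated hEPS cells and 30 of 58 in endodermal cells. As a share of the carrier genes this was 53.4%, 56.9%, 56.1%, 59.6% and 51.7% in that order. Of all genes in the same columns, 64.1%, 64.6%, 49.7%, 51.0% and 62.8% reached 1 FPKM. The share of carrier genes was thus the lower in the primed and endodermal columns and the higher in the hEPS columns. The hEPS table lists more genes. Of the 58, 28 were at 1 FPKM or more in every column that lists them, 21 were below 1 FPKM throughout and 9 were on both sides. SLC38A11, SLC6A14 and SLC7A13 were listed at 0 in each column. A few genes carried most of the signal. The 6 highest members of a column held between 60.3% and 73.6% of the summed carrier FPKM, and SLC1A5, SLC3A2 and SLC7A5 were among the 5 highest in each column.

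**Figure D1:**
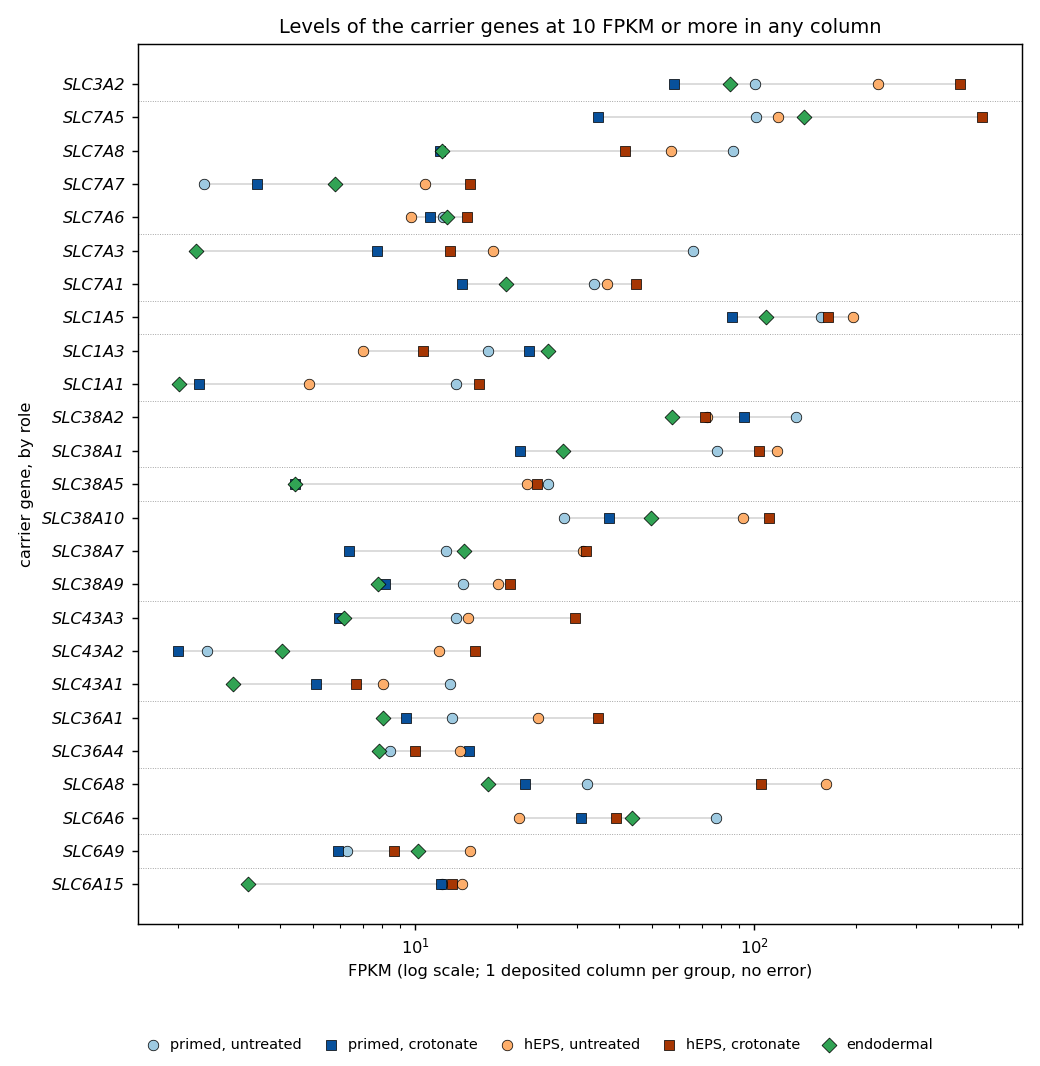
FPKM (horizontal axis, log scale) of the 25 carrier genes that reached 10 FPKM in at least 1 column, ordered by role with dotted lines between roles; each point is the single deposited column of a group, so no error can be drawn. SLC7A5 runs from 34.8 FPKM in treated primed hESCs to 471 FPKM in treated hEPS cells, and SLC7A3 stands far to the right of its other points in untreated primed hESCs (65.9 FPKM).

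A change with crotonate was taken within a table as the difference of log2(FPKM + 1), treated minus untreated. A gene was called when this difference was at least 1 in size, a fold of 2 on that scale, and when it reached 1 FPKM in one of the columns compared, which is termed measured here. In primed hESCs 33 of the 58 carrier genes were measured. Of them 11 were called lower, or 33.3%, where 12.7% of all 13210 genes measured were called lower. Counted over all genes in the table, 19% of the carrier genes and 8.72% of all genes were called lower. One carrier gene, SLC7A4, was called higher (3.03% of measured carrier genes and 1.72% of those in the table, beside 13.9% and 9.55% of all genes). Among genes with a mean of 10 FPKM or more, 7 of 18 carrier genes (38.9%) and 11.3% of all genes were called lower, and 0 of 18 and 12.3% of all genes were called higher. The median difference was -0.58 over the 33 measured carrier genes and -0.08 over all genes measured. By a looser rule, an FPKM ratio over 1.5 with no pseudocount, 17 of 33 carrier genes (51.5%) and 28.5% of all genes were lower. The call of SLC7A4 ended under quantile normalization (0.99) and that of SLC43A3 when differences were centred on the median of all genes (-0.95).

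In hEPS cells the same comparison gave fewer calls. Of 35 measured carrier genes 3 were called higher, SLC7A5, SLC1A1 and SLC36A2, which at 8.57% is close to the 8.42% of all genes measured. Other settings set these shares further apart, at 13.9% and 7.81% with quantile normalization and 17.1% and 9.86% when centred on the median of all genes. SLC1A6 and SLC38A8 were called lower (5.71%, beside 3.02% of all genes). Over all genes in the table, 5.26% of the carrier genes and 4.46% of all genes were called higher, and 3.51% and 1.6% lower. With a mean of 10 FPKM or more, 2 of 23 carrier genes (8.7%) and 6.36% of all genes were called higher, and 0 of 23 and 2.31% of all genes were called lower. The median difference was 0.11 over the measured carrier genes and -0.09 over all genes measured. By the looser rule 12 of 35 carrier genes (34.3%) and 20.1% of all genes were higher, and 5 of 35 (14.3%) and 18.1% were lower. Centred on the median of all genes, the calls of SLC1A6 and SLC38A8 ended (-0.97 and -0.96), as they did with a filter of 5 FPKM, and those of SLC43A3, SLC6A6 and SLC6A20 were added. Both tables were normalized separately, and levels in different tables are set side by side below without a fold. All genes together summed to 610417 and 596397 FPKM in the hEPS columns and to between 369750 and 373248 FPKM in the others. Orders of columns across tables are orders of raw FPKM and hold this difference of scale.

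**Figure D2:**
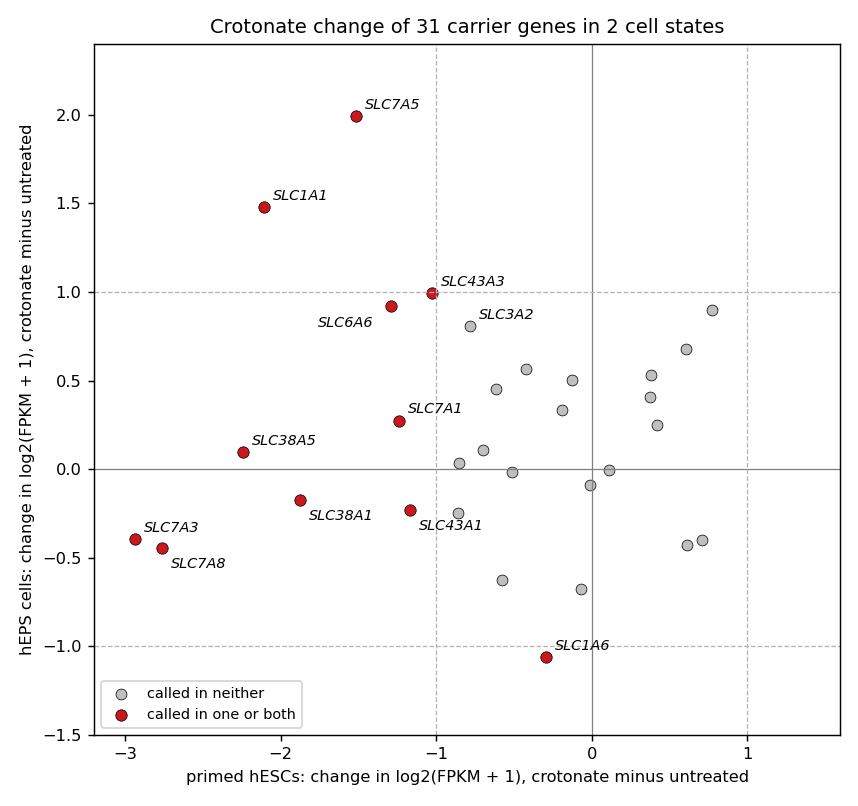
Difference of log2(FPKM + 1), crotonate minus untreated, in primed hESCs (horizontal axis) and hEPS cells (vertical axis) for the 31 carrier genes measured in both; dashed lines mark the calling threshold of 1 and red points are called in at least 1 comparison. SLC7A5 and SLC1A1 lie at the upper left, called lower in primed hESCs and higher in hEPS cells.

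Taken side by side, 31 carrier genes were measured in both comparisons. Of these, 13 had a lower value after crotonate in primed hESCs and a higher one in hEPS cells, 3 the reverse, 10 were lower in both and 5 higher in both. SLC7A5 and SLC1A1 were called in both comparisons, in opposite directions, and no carrier gene was called in the same direction in both. Over all 12111 genes measured in both, 174 (1.44%) were called lower in primed hESCs and higher in hEPS cells, and 44 the reverse. Calls in the same direction and the split by sign were not counted over all genes. They are therefore not read as particular to the carriers. No test of the difference between the cell states was possible with 1 column per group.

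The promoters of these genes were read from RefSeq (GRCh38.p14), in windows of 300 bases that run from 250 before to 50 after a start site. Windows were found for 44 of the 58 genes. A window was called rich in CpG at a GC content of at least 55% with an observed to expected CpG ratio of at least 0.65. Such a window was found for 24 of the 44 carrier genes (54.5%), for 6 of the 8 genes with a window that were called lower in primed hESCs, for 15 of the 21 (71.4%) that reached 10 FPKM in any column, and for 45.5% of 27305 genes. The 250 bases before the start are printed for the genes called in opposite directions, SLC7A5 and SLC1A1, and for SLC38A5, which was called lower in primed hESCs and has few CpG, with each CpG in capitals, on the strand of the gene. They lie at chr16:87869508-87869757 (minus strand), chr9:4490218-4490467 (plus strand) and chrX:48470261-48470510 (minus strand).
SLC7A5: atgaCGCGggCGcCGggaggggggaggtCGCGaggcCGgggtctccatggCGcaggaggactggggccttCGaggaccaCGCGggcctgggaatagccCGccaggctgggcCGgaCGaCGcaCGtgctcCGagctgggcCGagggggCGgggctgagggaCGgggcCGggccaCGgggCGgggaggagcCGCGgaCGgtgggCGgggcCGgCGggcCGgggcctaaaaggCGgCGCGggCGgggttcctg
SLC1A1: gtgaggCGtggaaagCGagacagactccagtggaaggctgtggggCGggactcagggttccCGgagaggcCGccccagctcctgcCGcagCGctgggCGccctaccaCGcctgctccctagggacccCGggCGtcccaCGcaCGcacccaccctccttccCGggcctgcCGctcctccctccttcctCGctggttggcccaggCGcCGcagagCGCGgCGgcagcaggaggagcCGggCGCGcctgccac
SLC38A5: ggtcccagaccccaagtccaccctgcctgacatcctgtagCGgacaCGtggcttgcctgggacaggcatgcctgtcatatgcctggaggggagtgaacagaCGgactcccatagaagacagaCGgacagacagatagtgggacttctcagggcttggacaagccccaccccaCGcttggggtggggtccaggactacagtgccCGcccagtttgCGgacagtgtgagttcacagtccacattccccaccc
These stretches hold 34 CpG for SLC7A5, 24 for SLC1A1 and 7 for SLC38A5, so SLC7A5 and SLC1A1 share a CpG-rich start and SLC38A5 does not.

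SLC7A5 (chromosome 16, 87830023 to 87869507, minus strand, hg38) encodes LAT1, the light subunit for large neutral amino acids such as leucine. It was at 101.1 FPKM in untreated primed hESCs and 34.8 FPKM after crotonate, at 117.7 FPKM in untreated hEPS cells and 471.2 FPKM after crotonate, and at 140.3 FPKM in endodermal cells. Crotonate went with the lowest value of the 5 in primed hESCs and the highest in hEPS cells. The difference was -1.51 for the primed pair of columns and 1.99 for the hEPS pair. In treated hEPS cells SLC7A5 was the most abundant carrier gene, at the 99.4th percentile of the 18437 genes shared by the tables and with 25.5% of the summed carrier FPKM. RefSeq lists the pseudogenes SLC7A5P1 and SLC7A5P2, and reads shared with them could be assigned to either, so the level of SLC7A5 is uncertain to that extent.

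SLC3A2 (chromosome 11, 62856004 to 62888880) encodes the heavy subunit 4F2hc, also named CD98. Its FPKM was 100.6 and 58.0 in untreated and treated primed hESCs, 231.5 and 406.4 in untreated and treated hEPS cells and 85.2 in endodermal cells. It thus had the same direction as SLC7A5 in each cell state, with differences of -0.78 and 0.81 that fell short of the threshold. The ratio of SLC7A5 to SLC3A2 within a column was 1.005 in untreated and 0.599 in treated primed hESCs, 0.509 in untreated and 1.16 in treated hEPS cells and 1.65 in endodermal cells. The other heavy subunit, SLC3A1, which pairs with SLC7A9 in kidney and gut, stayed at or below 0.351 FPKM in every column.

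Among the other light subunits SLC7A8, the exchanger LAT2, was the second in level in 4 of the 5 columns, SLC7A6 being slightly higher in endodermal cells. SLC7A8 stood at 86.5 and 11.9 FPKM in untreated and treated primed hESCs, 56.9 and 41.5 FPKM in untreated and treated hEPS cells and 12.0 FPKM in endodermal cells. Its difference was -2.76 in primed hESCs, called lower, and -0.45 in hEPS cells. The ratio of SLC7A8 to SLC7A5 ran from 0.856 in untreated primed hESCs to 0.342 after crotonate, and from 0.484 to 0.0882 in hEPS cells, so that SLC7A5 outweighed SLC7A8 most in treated hEPS cells and in endodermal cells (0.0856).

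The light subunits y+LAT1 and y+LAT2, which exchange cationic for neutral amino acids, were not called. SLC7A7 had 2.39 and 3.41 FPKM in the primed columns, 10.7 and 14.5 FPKM in the hEPS columns and 5.82 FPKM in endodermal cells. SLC7A6 kept to a narrow range, with 12.1 and 11.1 FPKM in the primed columns, 9.70 and 14.2 FPKM in the hEPS columns and 12.4 FPKM in endodermal cells. SLC7A10, a carrier of small neutral amino acids, reached 3.22 FPKM at most, SLC7A9 stayed at or below 0.226 FPKM, and SLC7A13 was listed at 0. SLC7A5, SLC7A6, SLC7A7, SLC7A8 and SLC7A10 together summed to 203.6 and 64.3 FPKM in the primed columns. Their sum was 196.1 and 544.2 FPKM in the hEPS columns and 170.8 FPKM in endodermal cells. The SLC7 gene left out by the rule is not in these sums, so they need not cover every partner of SLC3A2.

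Cationic amino acids such as arginine and lysine enter through SLC7A1, SLC7A2 and SLC7A3. SLC7A3 (CAT3, X chromosome, 70925579 to 70931125) had the largest difference of the measured carrier genes in either comparison. SLC7A3 was at 65.9 FPKM in untreated primed hESCs, 7.74 FPKM after crotonate, 17.03 and 12.7 FPKM in untreated and treated hEPS cells and 2.25 FPKM in endodermal cells. Its level in untreated primed hESCs thus stood above the other 4 columns, and the primed FPKM ratio of untreated to treated was 8.52, a difference of -2.94. In hEPS cells the difference was -0.40.

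SLC7A1 (CAT1), the most widely expressed of these carriers, was also called lower in primed hESCs. Its values were 33.8 and 13.7 FPKM in the primed columns, 36.9 and 44.9 FPKM in the hEPS columns and 18.5 FPKM in endodermal cells, with differences of -1.24 and 0.27. The ratio of SLC7A3 to SLC7A1 was 1.95 in untreated primed hESCs, so that SLC7A3 was the higher of the pair there, and lay between 0.122 and 0.563 in the other columns. SLC7A4, a relative for which uptake of cationic amino acids has not been established, was called higher in primed hESCs from low values. SLC7A4 had 0.485 and 2.11 FPKM in the primed columns, 0.170 and 0.292 FPKM in the hEPS columns and 1.14 FPKM in endodermal cells. SLC7A2 ranged from 1.20 to 8.53 FPKM, and SLC7A14, a lysosomal relative, stayed at or below 0.302 FPKM.

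SLC1A5, also named ASCT2, exchanges glutamine and other neutral amino acids and was the first or second of the carriers in 4 of the 5 columns. It had 157.5 and 86.3 FPKM in untreated and treated primed hESCs, 196.4 and 165.1 FPKM in untreated and treated hEPS cells and 108.5 FPKM in endodermal cells. Both differences were below 0 and neither was called (-0.86 and -0.25). Its relative SLC1A4 (ASCT1), a serine carrier, was far lower and differed the other way, with 0.837 and 1.80 FPKM in the primed columns, 3.74 and 6.57 FPKM in the hEPS columns and 6.76 FPKM in endodermal cells. The ratio of SLC1A5 to SLC1A4 accordingly ran from 188 in untreated primed hESCs to 16.0 in endodermal cells.

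Of the 5 high-affinity glutamate carriers, 3 were measured in primed hESCs and 4 in hEPS cells. SLC1A1 (EAAT3, chromosome 9, 4490468 to 4587469), which takes up glutamate, aspartate and cysteine, was the second gene called in opposite directions. SLC1A1 was at 13.2 and 2.30 FPKM in untreated and treated primed hESCs, 4.88 and 15.4 FPKM in untreated and treated hEPS cells and 2.01 FPKM in endodermal cells. The differences were -2.11 and 1.48. Treated hEPS cells and untreated primed hESCs were thus its high columns, and treated primed hESCs and endodermal cells its low ones.

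SLC1A3 (EAAT1) is known from astrocytes and was the most abundant of the glutamate carriers in every column but treated hEPS cells, where SLC1A1 was higher. SLC1A3 had 16.4 and 21.7 FPKM in the primed columns, 7.003 and 10.6 FPKM in the hEPS columns and 24.7 FPKM in endodermal cells, with differences of 0.38 and 0.53 that were not called. SLC1A6 (EAAT4), known from Purkinje neurons, was called lower in hEPS cells from low values. SLC1A6 had 6.48 and 5.09 FPKM in the primed columns, 3.19 and 1.01 FPKM in the hEPS columns and 0.364 FPKM in endodermal cells. SLC1A2 (EAAT2) passed 1 FPKM only in the hEPS columns, at 3.07 and 2.47 FPKM, and SLC1A7 (EAAT5), known from retina, stayed at or below 0.0733 FPKM.

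System A carriers bring in small neutral amino acids such as alanine and glutamine with sodium. Their genes SLC38A1, SLC38A2 and SLC38A4 lie in this order on chromosome 12 between positions 46183063 and 46832408, with gaps of 88.2 and 392 kb. SLC38A1 (SNAT1) was at 77.8 and 20.5 FPKM in untreated and treated primed hESCs, 117 and 103.4 FPKM in untreated and treated hEPS cells and 27.3 FPKM in endodermal cells. SLC38A2 (SNAT2), the member known to be induced when amino acids are scarce, had 133.2 and 93.1 FPKM in the primed columns, 72.7 and 71.9 FPKM in the hEPS columns and 57.3 FPKM in endodermal cells. SLC38A4 (SNAT4) had 6.80 and 1.40 FPKM in the primed columns, 0.231 and 0.632 FPKM in the hEPS columns and 0.0872 FPKM in endodermal cells.

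In primed hESCs the outer genes of this cluster were called lower, SLC38A1 at -1.88 and SLC38A4 at -1.70, and SLC38A2 between them was at -0.51 and was not called. In hEPS cells SLC38A1 was at -0.18 and SLC38A2 at -0.02, and SLC38A4 was below the 1 FPKM minimum. The ratio of SLC38A1 to SLC38A2 was 0.584 and 0.2197 in the primed columns, 1.61 and 1.44 in the hEPS columns and 0.476 in endodermal cells, so SLC38A1 was the higher of the pair in the hEPS columns only. As a role, system A held 20.0% and 20.7% of the summed carrier FPKM in the primed columns.

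SLC38A5 (SNAT5, X chromosome, 48458537 to 48470260), a system N carrier of glutamine, histidine and serine, was called lower in primed hESCs. SLC38A5 stood at 24.7 and 4.43 FPKM in the primed columns, 21.4 and 22.9 FPKM in the hEPS columns and 4.41 FPKM in endodermal cells. Treated primed hESCs and endodermal cells were its low columns, at nearly the same FPKM, and the differences were -2.24 in primed hESCs and 0.10 in hEPS cells. SLC38A3 (SNAT3), the system N carrier of liver, was at or below 0.807 FPKM in the columns that list it.

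The SLC38 members with roles inside the cell were not called where they were abundant. SLC38A9, a lysosomal carrier and arginine sensor for mTORC1, had 13.8 and 8.14 FPKM in the primed columns, 17.6 and 19.0 FPKM in the hEPS columns and 7.78 FPKM in endodermal cells. SLC38A7, a lysosomal glutamine carrier, had 12.3 and 6.38 FPKM in the primed columns, 31.2 and 32.0 FPKM in the hEPS columns and 13.9 FPKM in endodermal cells. SLC38A10 had 27.6 and 37.2 FPKM in the primed columns, 92.9 and 110.7 FPKM in the hEPS columns and 49.6 FPKM in endodermal cells. SLC38A10 was higher after crotonate in both cell states (0.42 and 0.25), and SLC38A9 and SLC38A7 were lower in primed hESCs (-0.70 and -0.85) and nearly level in hEPS cells (0.11 and 0.03). SLC38A8, known from the eye, was called lower in hEPS cells at 2.27 and 0.576 FPKM, was at or below 0.0426 FPKM in the primed columns and was listed at 0 in endodermal cells. SLC38A6 ranged from 2.76 to 5.56 FPKM.

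SLC43A1 and SLC43A2 (LAT3 and LAT4) carry large neutral amino acids without exchange, and SLC43A3 carries purine nucleobases. SLC43A3 and SLC43A1 lie on chromosome 11 with 57 kb between them, where genes of other families were not looked for. Both were called lower in primed hESCs. SLC43A1 had 12.7 and 5.10 FPKM in the primed columns, 8.05 and 6.69 FPKM in the hEPS columns and 2.91 FPKM in endodermal cells. SLC43A3 had 13.2 and 5.98 FPKM in the primed columns, 14.3 and 29.6 FPKM in the hEPS columns and 6.16 FPKM in endodermal cells. The differences in primed hESCs were -1.17 for SLC43A1 and -1.03 for SLC43A3, and that of SLC43A3 in hEPS cells was 0.99, just short of the threshold. SLC43A2 had 2.43 and 1.998 FPKM in the primed columns, 11.7 and 15.0 FPKM in the hEPS columns and 4.05 FPKM in endodermal cells.

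The proton-coupled carrier SLC36A1 (PAT1), which moves glycine, alanine and proline out of lysosomes, was not called. SLC36A1 had 12.9 and 9.40 FPKM in the primed columns, 23.0 and 34.6 FPKM in the hEPS columns and 8.02 FPKM in endodermal cells. SLC36A4 had 8.46 and 14.5 FPKM in the primed columns, 13.6 and 10.0 FPKM in the hEPS columns and 7.83 FPKM in endodermal cells. The pair thus differed in opposite directions in each cell state, with differences of -0.42 and 0.57 for SLC36A1 and 0.71 and -0.40 for SLC36A4. SLC36A2 was listed at 0 in untreated hEPS cells, untreated primed hESCs and endodermal cells, at 0.0201 FPKM in treated primed hESCs and at 1.71 FPKM in treated hEPS cells. Its call of higher in hEPS cells starts from a listed 0, so no fold is given, and it ended with a filter of 5 FPKM. SLC36A3 was at or below 0.0104 FPKM.

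Of the SLC6 family, which includes the carriers of the monoamine and amino acid transmitters, 5 of 19 members were measured in primed hESCs and 6 in hEPS cells. SLC6A6, the taurine carrier, had 77.3 and 30.97 FPKM in the primed columns, 20.2 and 39.2 FPKM in the hEPS columns and 43.6 FPKM in endodermal cells. It was called lower in primed hESCs (-1.29) and was not called in hEPS cells (0.92). SLC6A8, the creatine carrier, had 32.1 and 21.1 FPKM in the primed columns, 162.8 and 105.2 FPKM in the hEPS columns and 16.4 FPKM in endodermal cells. SLC6A8 was the third highest carrier gene in untreated hEPS cells, and neither of its differences was called (-0.58 and -0.63). RefSeq lists the pseudogene SLC6A10P, a copy of SLC6A8, so reads may be shared between them.

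SLC6A9 (GlyT1) and SLC6A15, a carrier of proline and branched-chain amino acids, were the other SLC6 members to reach 10 FPKM. SLC6A9 had 6.29 and 5.94 FPKM in the primed columns, 14.5 and 8.70 FPKM in the hEPS columns and 10.2 FPKM in endodermal cells. SLC6A15 had 12.0 and 11.9 FPKM in the primed columns, 13.8 and 12.8 FPKM in the hEPS columns and 3.21 FPKM in endodermal cells. Neither was called, and SLC6A15 was low in endodermal cells alone. SLC6A16, with no established substrate, ranged from 1.33 to 4.04 FPKM. SLC6A20, a proline carrier, was at or below 0.0882 FPKM in 4 columns and at 1.12 FPKM in treated hEPS cells, a difference of 0.96.

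The carriers that define transmitter-using neurons were low. The dopamine, noradrenaline and serotonin carriers SLC6A3, SLC6A2 and SLC6A4 summed to between 0.0902 and 0.413 FPKM in a column. The GABA carrier SLC6A11 stayed at or below 0.974 FPKM. SLC6A5, the glycine carrier of inhibitory neurons, was listed at 0 in 4 columns and at 0.00532 FPKM in treated hEPS cells. The remaining members SLC6A7, SLC6A12, SLC6A13, SLC6A17, SLC6A18 and SLC6A19 were at or below 0.572 FPKM, and SLC6A14 was listed at 0. Of 7 listed vesicular transmitter carriers, 2 were measured in each comparison and none was called.

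**Figure D3:**
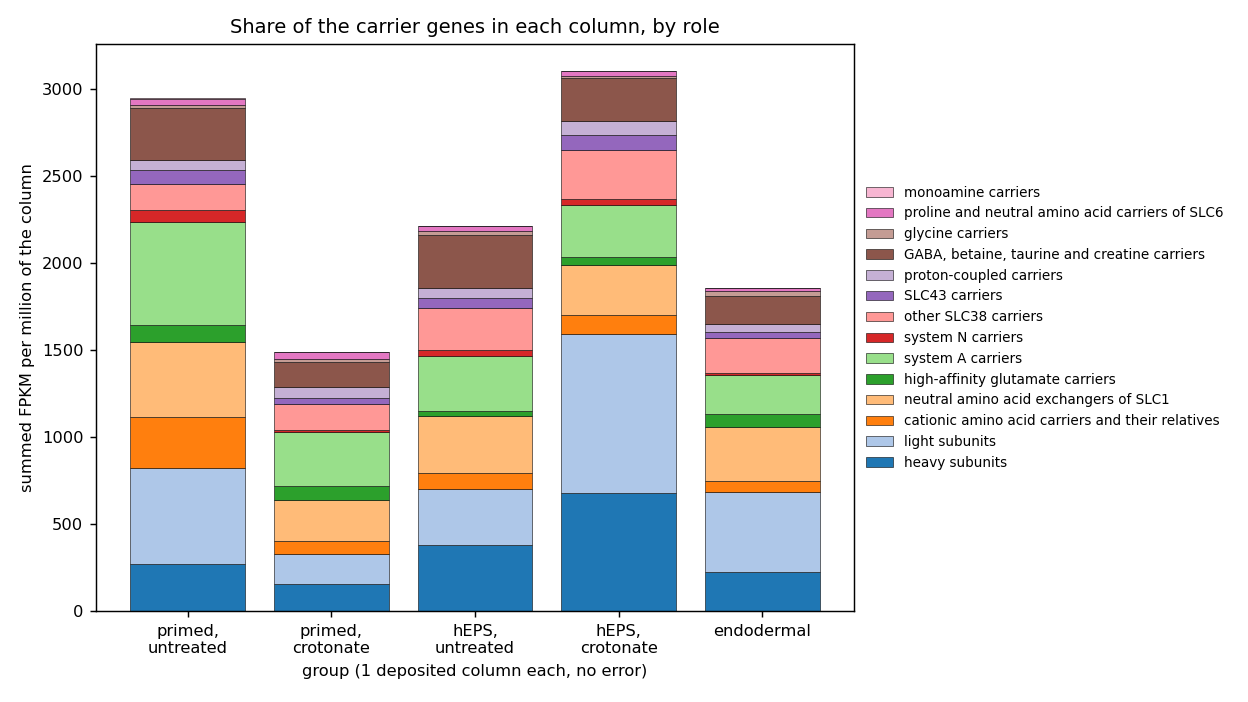
Summed FPKM of the carrier genes per 1000000 of each column's total (vertical axis), stacked by role from heavy subunits at the bottom to monoamine carriers at the top; each bar is 1 deposited column. The bars reach 2945 and 1488 in untreated and treated primed hESCs, 2213 and 3102 in untreated and treated hEPS cells and 1857 in endodermal cells, and the heavy and light subunits take up most of the treated hEPS bar.

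Summed over all members, the carrier genes made up 2945 of each 1000000 FPKM of the column total in untreated primed hESCs and 1488 after crotonate. In hEPS cells the sum was 2213 untreated and 3102 after crotonate, and in endodermal cells it was 1857. The heavy subunits of hEPS cells held 17.2% of the summed carrier FPKM untreated and 22.0% after crotonate the light subunits 14.5% and 29.4%, and the system A carriers 14.1% and 9.51%. In primed hESCs the light subunits held 18.7% untreated and 11.6% after crotonate, the cationic carriers 10.0% and 5.19%, and the SLC1 exchangers 14.5% and 15.9%.

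By role, the calls of lower in primed hESCs were 2 of 5 measured light subunits, 2 of 4 cationic carriers, 2 of 3 system A carriers, 2 of 3 SLC43 carriers, the 1 system N carrier measured, 1 of 3 glutamate carriers and 1 of 2 carriers of the GABA, taurine and creatine group, beside 12.7% of all genes measured. With so few members in a role these counts are a description only. No call fell among the SLC1 exchangers, the SLC36 carriers, the glycine carriers or the other SLC38 members in that comparison.

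The promoter windows were also searched on both strands for TTGCATC, the core of the amino acid response element through which ATF4 and C/EBP factors are known to act. It was found in 2.398% of 35116 windows, which covers 2.99% of genes, and in the windows of 3 of 44 carrier genes, SLC1A4, SLC1A3 and SLC1A5. The matches are printed with 10 bases on each side, on the strand of the gene, and the capitals mark the motif or its reverse complement.
SLC1A4: cggctcccgtTTGCATCatctccagcc
SLC1A3: ggaaatgactGATGCAAagcagggtta
SLC1A5: ggaagtggctGATGCAAgctgtccagg
They begin 7 bases before a start site of SLC1A4, 219 before one of SLC1A3 and 96 before one of SLC1A5, in the windows chr2:64989149-64989448, chr5:36596338-36596637 and chr19:46784765-46785064. None of these 3 genes was called in either comparison, and no window of a called carrier gene held these letters. The called genes SLC7A3, SLC6A6, SLC43A3 and SLC7A4 had no window, and bases outside the windows were not searched. A match is a description of the window, not a binding site.

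**Figure D4:**
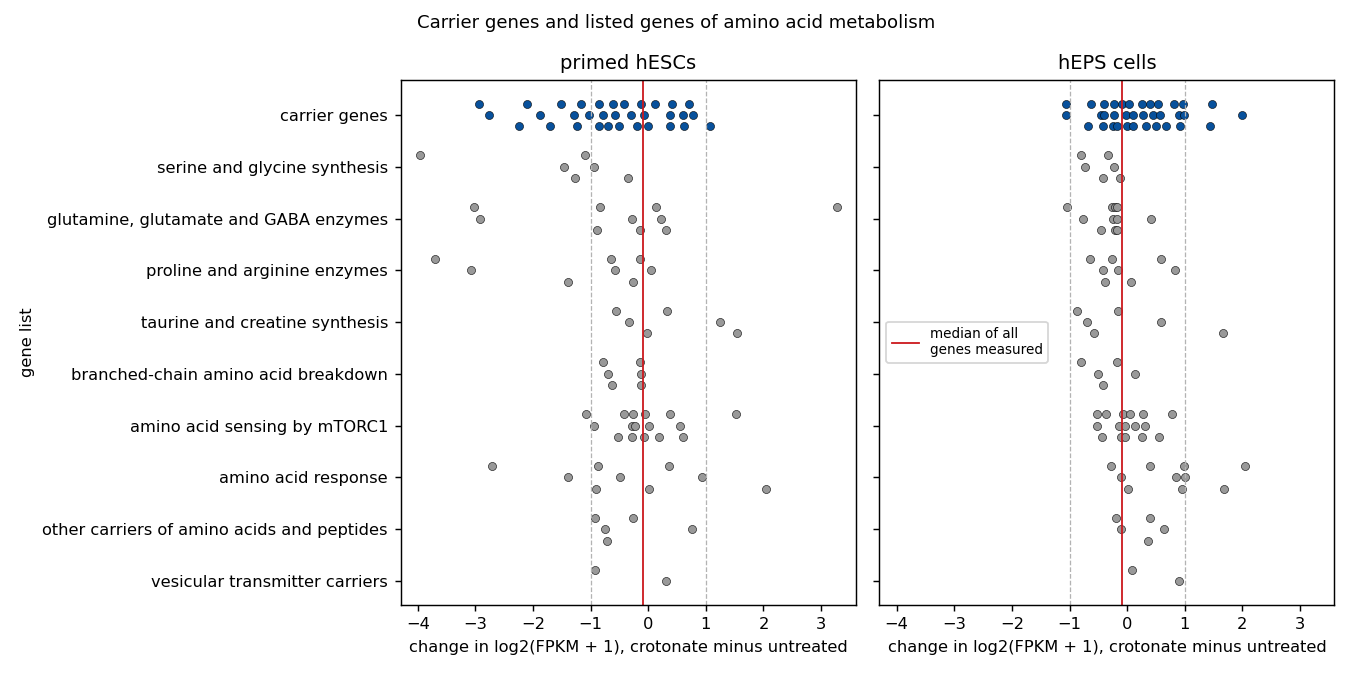
Difference of log2(FPKM + 1), crotonate minus untreated, of the measured carrier genes (top line, blue) and of the measured genes of 9 lists (grey) in primed hESCs (left) and hEPS cells (right); each point is a gene, spread slightly up and down for visibility, the red line is the median of all genes measured (-0.08 and -0.09) and dashed lines mark the calling threshold of 1. Serine and glycine synthesis lies at or below 0 in both panels, and the points of the amino acid response lie further right in hEPS cells.

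Genes that make, break down or sense the amino acids were followed as lists, and their counts stand beside calls for 12.7% (lower) and 13.9% (higher) of all genes measured in primed hESCs and 3.02% and 8.42% in hEPS cells. Serine and glycine synthesis had 4 of 6 members called lower in primed hESCs and none called in hEPS cells, with median differences of -1.18 and -0.38. The named members are GLDC, the decarboxylase that splits glycine, at 48.6 and 2.18 FPKM in the primed columns, SHMT2, the mitochondrial enzyme that makes glycine from serine, at 129.6 and 46.2 FPKM, and PHGDH, the first enzyme of serine synthesis, at 249.1 and 103 FPKM. Their hEPS columns were 28.1 and 20.7 FPKM for GLDC, 184.9 and 146.5 FPKM for SHMT2 and 167.9 and 95.7 FPKM for PHGDH. GLDC breaks glycine down, so the list's name does not cover it.

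Of 10 measured genes of glutamine, glutamate and GABA metabolism in primed hESCs, 2 were called lower and 1 higher, near the shares of all genes measured there. ASNS, asparagine synthetase, was at 78.4 and 8.69 FPKM, GLS2, a glutaminase, at 10.7 and 0.540 FPKM, and GAD1, which makes GABA from glutamate, at 0.128 and 9.91 FPKM. In hEPS cells the only call in this list was ALDH5A1, the last enzyme of GABA breakdown, at 5.38 and 2.09 FPKM. Of 8 measured proline and arginine enzymes, 3 were called lower in primed hESCs and none in hEPS cells. Among these were ASS1, which makes the precursor of arginine, at 44.6 and 2.50 FPKM, and PRODH, which breaks proline down, at 18.8 and 1.34 FPKM.

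For taurine and creatine, whose carriers SLC6A6 and SLC6A8 were among the abundant members, the enzymes that were called were higher after crotonate. CSAD, which makes the taurine precursor, was at 3.35 and 9.30 FPKM and GAMT, the last enzyme of creatine synthesis, at 9.25 and 28.8 FPKM in the primed columns. GATM, the first enzyme of creatine synthesis, was called higher in hEPS cells at 22.9 and 74.8 FPKM. Each comparison measured 6 genes of this list. Breakdown of branched-chain amino acids had no call in either comparison among 6 and 5 measured genes.

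Among 16 measured genes of amino acid sensing by mTORC1, SESN3, a sestrin, was called higher (8.25 and 25.5 FPKM) and MTOR, the kinase itself, lower (30.1 and 13.7 FPKM) in primed hESCs, and none was called in hEPS cells. The amino acid response, in which the kinase GCN2 (EIF2AK4) acts through ATF4, had 3 of 10 members called higher in hEPS cells and none lower. ATF3 was at 112.1 and 362.8 FPKM in the hEPS columns, TRIB3, a pseudokinase that restrains ATF4, at 5.69 and 26.7 FPKM, and CEBPB at 14.001 and 29.3 FPKM. In primed hESCs ATF3 was also called higher, at 5.97 and 27.7 FPKM, and CHAC1, which degrades glutathione, at 12.1 and 1.003 FPKM and EIF2AK4 at 56.8 and 21.1 FPKM were called lower. This list had a median difference of -0.49 for the primed pair and 0.90 for the hEPS pair. Of 5 measured genes among 7 other plasma membrane carriers of amino acids and peptides, none was called in either comparison.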

How the data were processed

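Messenger RNA selected with oligo(dT) was sequenced as 150-bp paired-end reads. According to the notes of the submitters and the methods of the paper, the tools and build were TopHat 1.3.2, Cufflinks 1.1.0, HTSeq 0.6.0, StringTie 1.3.0, edgeR with TMM scaling and hg38. The labels give TRIzol and the methods RNeasy for extraction. As deposited by the authors, 3 tables give FPKM values in 5 columns, 1 per group, with 0 further columns of sample values. The sources used here do not say how the 2 samples of a group became 1 column, so the depth per sample is unknown and the limma fit planned for 1 column per sample could not be run. The hEPS table lists 26731 genes and the others 19198 each, with other symbols, so levels in different tables were set side by side only. Below 0.2 FPKM, ratios of treated to untreated values fell on ratios of whole numbers up to 12, within 0.05%, for 81.3% of 879 genes in primed hESCs and 91.4% of 1724 in hEPS cells when 1 read was worth 1.13 and 1.32 times as much FPKM in the treated column. This reflects depth and TMM scaling together. Strand use in counting is not stated.

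Of the symbols, 28 (hEPS) and 27 (each other table) had become dates and were dropped. Differences of log2(FPKM + 1), treated minus untreated, were called at a size of 1 where either of the 2 columns reached 1 FPKM, using Python 3.11.15, numpy 2.4.6 and pandas 2.3.3. The rule was tested on simulated data. Background shares cover whole tables. Coordinates are from GENCODE 44 (58 of 58 symbols found) and promoters from RefSeq. Values in all columns are given for carrier genes called in either comparison, at 10 FPKM or more in any column, or named for a central role beforehand (SLC3A2, SLC7A5, SLC1A5, SLC7A1, SLC38A2, SLC38A9 and SLC6A8). Up to 3 called members with the largest differences are named for each pathway list. The genes, lists and rules were chosen with earlier results of these data known. Values of some single genes are not reported here.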

Additional observations from a re-analysis of the deposited data

Results flagged for a closer look

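SLC7A5 and SLC1A1 were singled out because their calls went in opposite directions in the 2 cell states. The log2 difference of SLC7A5 was -1.51 for the primed columns and 1.99 for the hEPS columns. For SLC1A1 the values were -2.11 and 1.48. The difference between the cell states was not tested, since each group has 1 column. Groups of 4 or more samples did not exist, so single samples were not screened.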

How the results depend on the processing

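No paired analysis was possible because each group has 1 column, and for the same reason no replicate could be left out. Carrier genes called lower in primed hESCs stayed at 11 with a pseudocount of 0.1, no filter, a 5 FPKM filter and quantile normalization. Their number was 10 when centred on the median of all genes and 17 by an FPKM ratio over 1.5. With the pseudocount these were 33.3% of measured carrier genes, beside 16.0% of all genes measured. The shares were 19.0% and 8.72% with no filter, 42.3% and 12.5% with the 5 FPKM filter and 33.3% and 12.9% with quantile normalization. They were 30.3% and 11.0% when centred and 51.5% and 28.5% by the ratio. Called higher there were 3 with a pseudocount of 0.1 (9.09%, beside 16.9% of all genes measured) and 5 by the ratio (15.2%, beside 25.3%). The number was 0 with the 5 FPKM filter (beside 13.99%) and 0 with quantile normalization (beside 13.4%). In hEPS cells 6 were called higher with a pseudocount of 0.1 (17.1%, beside 12.3% of all genes measured). With the 5 FPKM filter 2 were called higher (7.41%, beside 8.10%), and the call of SLC36A2 ended. Quantile normalization gave 5 (13.9%, beside 7.81%), centring 6 (17.1%, beside 9.86%) and the ratio 12 (34.3%, beside 20.1%). Called lower were 0 with the 5 FPKM filter (beside 2.75%), 0 when centred (beside 2.22%) and 5 by the ratio (14.3%, beside 18.1%). The median difference of measured members in primed hESCs was -0.60 with a pseudocount of 0.1, -0.066 with no filter, -0.82 with the 5 FPKM filter, -0.51 with quantile normalization, -0.50 when centred and -0.60 by the ratio. In hEPS cells it was 0.060 with no filter, 0.14 with quantile normalization and 0.20 when centred. Filters change which genes are counted, and other causes were not tested. With each column scaled to 1000000 over the symbols shared by the tables, the summed carrier genes were at 2999, 1514, 2577, 3883 and 1889 in untreated and treated primed, untreated and treated hEPS and endodermal columns. No called member reversed its direction. Of the named members that were not called, SLC38A2 in hEPS cells was at 0.10 with quantile normalization and 0.08 when centred, and SLC6A15 in primed hESCs at 0.0023 and 0.07, above 0 where the reported values are just below it. SLC7A5 and SLC1A1 kept both calls under each alternative. Among 144 values in primed hESCs 135 kept their side of the threshold, and 144 of 161 in hEPS cells. Depth is unknown, so small differences of genes near 1 FPKM cannot be judged.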

Other observations

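Several carrier genes below 1 FPKM stood higher after crotonate in both cell states, and others stood lower in both. Among the latter, SLC6A11 was at 0.813 and 0.0447 FPKM in the primed columns and 0.974 and 0.319 FPKM in the hEPS columns. SLC6A2 was at 0.0722 and 0.0204 FPKM in the primed columns and 0.328 and 0.207 FPKM in the hEPS columns. Such directions were not counted over all genes at this level, so no common direction is read from them. SLC6A13, a GABA and taurine carrier of liver and kidney, was at 0.0342 and 0.426 FPKM in the primed columns and 0.0198 and 0.261 FPKM in the hEPS columns, and at 0.286 FPKM in endodermal cells. The steps between low FPKM values give the read numbers behind them up to a common factor. For SLC6A13 the smallest whole numbers that match are 1 and 11 reads in primed hESCs and 1 and 10 reads in hEPS cells, so the untreated values may rest on single reads. SLC6A19, a neutral amino acid carrier of gut and kidney, was at 0.0235 and 0.472 FPKM in the primed columns and 0.188 and 0.502 FPKM in the hEPS columns, and was listed at 0 in endodermal cells.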
